A study of Homo sapiens with 4 samples.

Results

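The genes described here are the insulin-like growth factor (IGF) system as it was found in a neuroblastoma line: the ligand IGF2, the receptors IGF1R, INSR and IGF2R, the binding proteins IGFBP2, IGFBP3, IGFBP4, IGFBP5 and IGFBP6, and H19, the noncoding RNA gene beside IGF2. They were chosen by gene symbol, and all 10 were found by Ensembl identifier among the 60671 genes of the count table. RNA sequencing compared SK-N-BE(2) cells carrying a short hairpin RNA against METTL14 (shMETTL14) with cells carrying a control hairpin (shNC), with 2 libraries in each group. SK-N-BE(2) is an established human neuroblastoma line with an amplified MYCN gene, and METTL14 is a subunit of the enzyme complex that places N6-methyladenosine (m6A) on RNA. The comparison asked how the IGF genes were expressed when METTL14 was reduced.

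The study's methods describe hairpins delivered by a pLKO.1 lentiviral vector and stable lines selected with puromycin, an agent that knockdown and control cells would then share. The labels name no other agent. They say neither which METTL14 hairpin was used nor whether the libraries came from separate cultures, so p-values measure the spread between these libraries, which may be technical. Because RNA came from bulk cells, fewer cells expressing a gene and less of its RNA per cell cannot be told apart.

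IGF2 and its relative IGF1 are secreted peptides that signal through the tyrosine kinase receptor IGF1R and, for IGF2, also through the insulin receptor, which INSR encodes; docking proteins then carry the signal to PI3K and AKT and to the RAS pathway. IGF2R takes up IGF2 for breakdown in lysosomes and has no kinase, while the IGFBPs hold the ligands outside the cell and are cut by proteases. IGF2 and H19 are imprinted neighbours on chromosome 11p15, and IGF signaling is a known growth and survival pathway of neuroblastoma cells.

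Knockdown left IGF1R mRNA higher and INSR mRNA lower, and divided the binding proteins: IGFBP2, IGFBP3 and IGFBP5 rose, and IGFBP4 fell. IGF2R, IGF2, IGFBP6 and H19 did not pass the test. Of the 10 members, 6 were called at an adjusted p under 0.05 (edgeR's quasi-likelihood test, Benjamini-Hochberg adjustment over all genes tested), against 52.5% of all 16309 genes tested. A total of 4 members were called higher, where 27.2% of all genes were, and 2 were called lower, where 25.3% were. Under upper quartile scaling, 41.7% of all calls were higher, against 51.8% here. IGFBP3 was the 1 member called with a change of at least 2-fold, as were 8.79% of all genes tested. The 2 shNC and 2 shMETTL14 values did not overlap for 9 of the 10 members, and for 75.5% of all genes. The median log2 fold change of the members was 0.08 and its median size 0.50, while over all genes tested these medians were -0.000953 and 0.3. All 10 members passed the filter on low counts. With calls this common across the transcriptome, the share of members called lay near the background of the edgeR test. DESeq2, another test, called the same 6 members and fewer genes in all, 5556 of 16391 tested.

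The sequences just upstream of the transcription starts are shown for the 6 called members and for IGF2R, so that the letters can be set beside the directions. Each line gives the last 100 bases before a RefSeq start on GRCh38.p14, 5′ to 3′ on the gene's strand, and capitals mark GGGCGG (the GC box bound by SP1 and related factors), CACGTG (the E-box, which MYCN and related factors bind) and TATAAA (the TATA box), read on both strands.
IGF1R, chr15:98648439-98648538, plus strand: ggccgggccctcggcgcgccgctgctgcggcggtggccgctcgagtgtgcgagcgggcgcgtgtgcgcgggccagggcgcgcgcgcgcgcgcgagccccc
INSR, chr19:7294415-7294514, minus strand: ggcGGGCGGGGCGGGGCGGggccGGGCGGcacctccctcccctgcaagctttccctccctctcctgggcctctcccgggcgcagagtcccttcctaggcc
IGF2R, chr6:159968982-159969081, plus strand: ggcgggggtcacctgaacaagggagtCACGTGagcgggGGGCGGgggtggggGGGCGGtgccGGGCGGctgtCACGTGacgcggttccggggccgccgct
IGFBP2, chr2:216633320-216633419, plus strand: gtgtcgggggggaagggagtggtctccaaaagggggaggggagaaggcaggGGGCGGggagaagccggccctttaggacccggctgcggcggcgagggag
IGFBP3, chr7:45921273-45921372, minus strand: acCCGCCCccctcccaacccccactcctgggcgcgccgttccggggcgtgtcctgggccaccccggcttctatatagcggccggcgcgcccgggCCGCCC
IGFBP4, chr17:40443350-40443449, plus strand: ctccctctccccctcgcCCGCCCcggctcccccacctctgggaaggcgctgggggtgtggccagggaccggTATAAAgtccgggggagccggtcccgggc
IGFBP5, chr2:216695550-216695649, minus strand: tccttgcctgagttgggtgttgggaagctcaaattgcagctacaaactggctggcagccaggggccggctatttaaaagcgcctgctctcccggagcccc

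The search ran over 250 bases before each start, which RefSeq gave for 9 of the 10 members in 11 windows; IGFBP2 had 3 starts, of which 1 is shown. The GC box occurred in 8 of the 11 windows (72.7%), from 7 of the 9 genes, and in 42.6% of all 35116 windows. Among the called members it was found in IGF1R, IGFBP2 and IGFBP3, which rose, and in INSR and IGFBP4, which fell; the 2 matches of IGF1R lay outside the 100 bases shown, and IGFBP5 had none. The E-box occurred in 1 member, IGF2R, with 3 matches, and in 6.34% of all windows. A TATA box was read in IGFBP4 alone among the members and in 10.7% of all windows. The letters GTAAACA, which FOXO factors bind, were in the IGFBP6 window, not shown here, and in 2.98% of all windows. The 3 receptor windows were the richest in G and C among the members, at 81.2% for IGF1R, 79.2% for IGF2R and 78.4% for INSR. The other member windows ran from 56.4% (a start of IGFBP2) to 76.0% (IGFBP3), and the median of all windows was 58.0%. The part of this content in the GC box matches was not tested. These matches are descriptions of letters and not of binding.

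The targeted gene was checked first. METTL14 had 753 and 754 counts in the shNC libraries and 303 and 321 in the shMETTL14 libraries. Its level, in CPM (counts scaled to library size, after TMM normalization), went from 38.6 ± 1.13 (SD, n = 2) to 16.1 ± 0.851 (SD, n = 2), a log2 fold change of -1.26 (SE 0.0832, edgeR adjusted p = 3.6e-11). Between 18925786 and 19886214 counts fell in genes per library, and the biological coefficient of variation was 3.45%. Mean chi-square per gene was 2.66 between the shNC libraries, 2.21 between the shMETTL14 libraries and from 30.5 to 31.5 between groups, so replicates differed by more than sampling noise, which gives about 1, and were counted as 2 per group. Of 8 adrenergic neuroblastoma markers, 8 had over 3 counts in every library, with a summed level of 4770 to 4820 CPM in shNC and 4970 to 5020 CPM in shMETTL14. Of 8 mesenchymal markers, 7 had over 3 counts in every library, at a summed 2490 to 2550 and 2560 to 2620 CPM, and PRRX1 was at 3 counts or fewer in every library. These sums hold much of VIM alone, at 1940 and 1980 CPM, and marker by marker 1 of the 7 tested mesenchymal genes was called higher and 4 were called lower, while 2 of the 8 adrenergic genes were called higher and 6 lower. The 6 blood, endothelial and epithelial markers summed to 7.17 to 7.31 CPM in shNC and 4.47 to 5.26 CPM in shMETTL14, and CD68 and PECAM1 were at 3 counts or fewer in every library. For CD68, only 14.2% of the exon sequence is shared with no other gene, so its reads may have gone uncounted. The part of these marker differences in the results below was not tested.

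IGF2, the only ligand of the family with more than a few reads, was the member with the lowest counted level. It had 19 and 23 counts in the shNC libraries and 12 and 10 in the shMETTL14 libraries. Both shMETTL14 values lay under both shNC values. The level was 1.08 ± 0.175 CPM (SD, n = 2) in shNC and 0.566 ± 0.066 CPM (SD, n = 2) in shMETTL14, with a log2 fold change of -0.92 (SE 0.435, 95% interval -1.82 to -0.0129). It did not pass the edgeR test after adjustment (adjusted p = 0.082), although it did when genes under 10 counts in any library were left out (adjusted p = 0.0368). Over all alternatives tried, its adjusted p ran from 0.0368 to 0.362.

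The annotation limits what this IGF2 value holds. IGF2 (ENSG00000167244) lies at chr11:2129112-2149603 on the minus strand of GRCh38 in GENCODE 29, with 6979 bp of exon. Another entry named IGF2 (ENSG00000284779) covers 73.7% of that exon sequence and the readthrough gene INS-IGF2 covers 20.9%, both on the same strand. Both of these entries had 0 counts in every library. Only 25% of the exon sequence, 1744 bp, is shared with no gene on either strand, and reads in shared exons may have been set aside as ambiguous, a class that held 5.01% to 5.32% of counts per library. Per kb of that unshared exon, the level was 0.547 and 0.689 CPM in shNC and 0.351 and 0.298 CPM in shMETTL14. This was still the lowest counted value of the 10 members. It assumes that transcripts cover those bases as evenly as the rest, which was not tested, so IGF2 may be undercounted.

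H19, the noncoding RNA gene 127641 bp from IGF2 at chr11:1995176-2001470 (minus strand, ENSG00000130600), had a far higher counted level than IGF2. It had 471 and 497 counts in shNC and 522 and 556 in shMETTL14, so that the shMETTL14 libraries lay just above the shNC libraries. The level was 24.8 ± 1.64 CPM against 27.8 ± 1.58 CPM (SD, n = 2 each), and the log2 fold change of 0.16 (SE 0.0841, 95% interval -0.0104 to 0.339) did not pass the edgeR test (adjusted p = 0.11). With 1 library left out it ran from 0.0929 (without shNC replicate 1) to 0.238 (without shNC replicate 2) and was not called.

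H19 is also the host of miR-675, whose mature sequences lie in its exon and are shown because they are the small RNA products of a member. Both are from RefSeq on GRCh38.p14, minus strand, with the seed (bases 2 to 8) in capitals.
hsa-miR-675-5p, chr11:1996800-1996822: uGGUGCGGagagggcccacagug
hsa-miR-675-3p, chr11:1996768-1996787: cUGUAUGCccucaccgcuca
The 2 seeds differ. The MIR675 entry had 0 counts in every library, but a library of mRNA fragments does not measure mature miRNAs, and the entry lies wholly within H19, so its level cannot be read from these data.

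**Figure D1:**
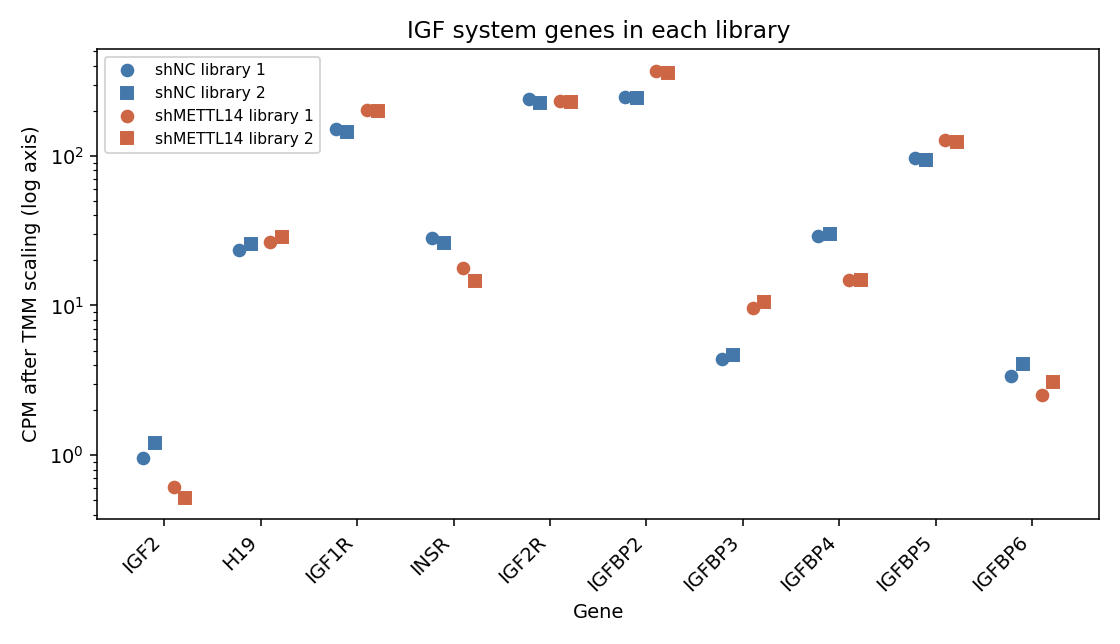
Level of each of the 10 IGF system genes (x axis) in every library, in CPM after TMM scaling on a log axis (y axis), with shNC libraries in blue and shMETTL14 libraries in orange, circles for library 1 and squares for library 2. Levels ran from that of IGF2, at most 1.20 CPM in a library, to that of IGFBP2, at 364 CPM on average in shMETTL14, and the groups overlapped for IGF2R only.

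The receptors moved in 3 ways. IGF1R (ENSG00000140443, chr15:98648539-98964530, plus strand), the kinase receptor of both IGFs, had 3017 and 2787 counts in shNC and 3974 and 3821 in shMETTL14. Every shMETTL14 value was above every shNC value. IGF1R rose from 148 ± 4.12 to 201 ± 3.13 CPM (SD, n = 2 each), a log2 fold change of 0.44 (SE 0.0421, edgeR adjusted p = 1.6e-08), and 14.9% of all tested genes lay above it.

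INSR (ENSG00000171105, chr19:7112255-7294034, minus strand), the insulin receptor, which also binds IGF2 and pairs with IGF1R in hybrid receptors, went the opposite way. Its counts were 562 and 502 in shNC and 347 and 281 in shMETTL14. The shMETTL14 libraries differed from each other more than those of IGF1R did in proportion, but both lay well under shNC. INSR fell from 27.2 ± 1.4 to 16.2 ± 2.21 CPM (SD, n = 2 each), a log2 fold change of -0.75 (SE 0.0968, edgeR adjusted p = 1.0e-06).

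IGF2R (ENSG00000197081, chr6:159969099-160113507, plus strand), the clearance receptor, had 4774 and 4335 counts in shNC and 4579 and 4438 in shMETTL14. The shMETTL14 values lay between the shNC values. At 233 ± 9.29 and 232 ± 2.31 CPM (SD, n = 2 each), its log2 fold change was -0.0046 (edgeR adjusted p = 0.93), with a 95% interval of -0.0906 to 0.0813. The sign of so small a difference changed without a filter, with DESeq2, without shNC replicate 1 and without shMETTL14 replicate 2.

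The balance of the kinase receptors shifted with these changes. Per kb of exon, which allows levels of different genes to be compared, the ratio of IGF1R to INSR was 4.03 and 4.16 in the shNC libraries and 8.59 and 10.2 in the shMETTL14 libraries. The ratios did not overlap, and the difference of the group means was 1.19 on the log2 scale. An exact two-sided permutation test of 2 libraries against 2 gave p = 0.333, the smallest it can give, so this ratio and the ones that follow are descriptions. The ratio of IGF2 to IGF2R, ligand to clearance receptor, was 0.0102 and 0.0136 in shNC and 0.0067 and 0.00576 in shMETTL14, and rests on the few IGF2 reads.

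**Figure D2:**
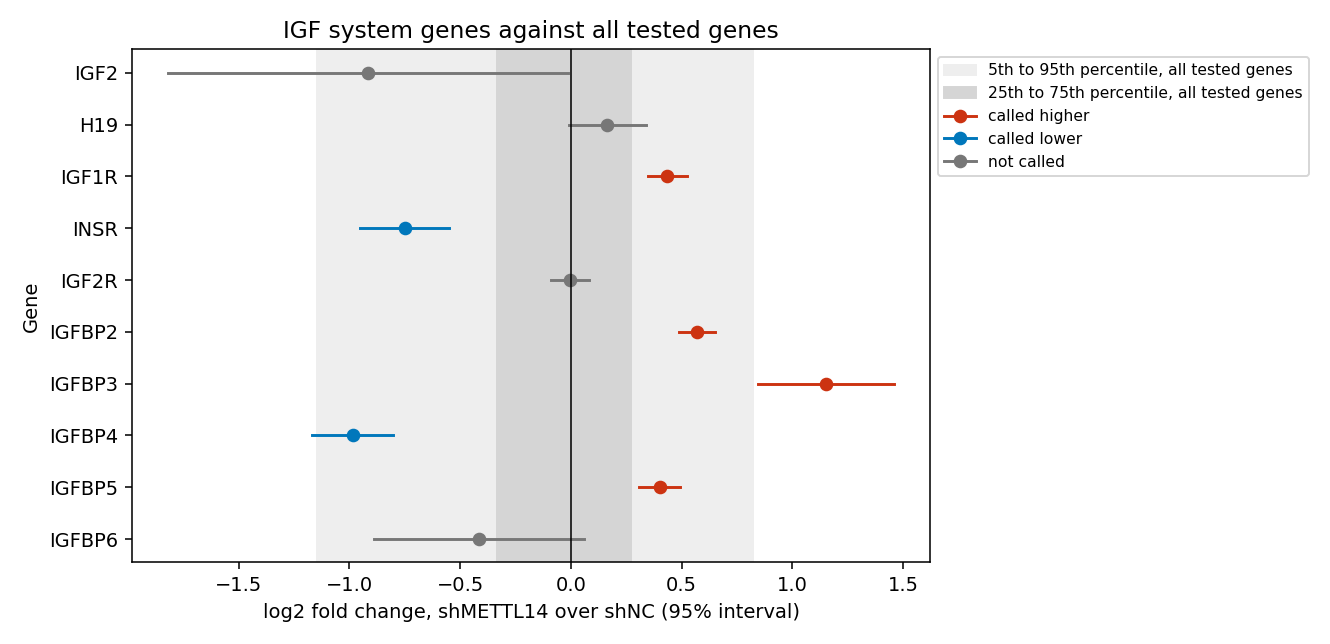
Log2 fold change of each IGF system gene, shMETTL14 over shNC (x axis), with its 95% interval as a bar, in red where called higher, blue where called lower and grey where not called; the shaded bands hold the central 25th to 75th and 5th to 95th percentiles of all tested genes. IGFBP3, at 1.15, lay above the 95th percentile of 0.82, IGFBP4, at -0.98, lay inside the 5th percentile of -1.15, and IGF2R lay at the centre.

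The binding proteins formed the largest group, and 4 of 5 were called, where 52.5% of all tested genes were. IGFBP2 (ENSG00000115457, chr2:216632828-216664436, plus strand), a carrier of IGF2 in particular, was the most abundant member per kb in both groups. It had 4928 and 4663 counts in shNC and 7265 and 6877 in shMETTL14. Both knockdown libraries lay far above both controls. IGFBP2 rose from 245 ± 2.64 to 364 ± 9.7 CPM (SD, n = 2 each), a log2 fold change of 0.57 (SE 0.0396, edgeR adjusted p = 9.0e-11).

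IGFBP5 (ENSG00000115461, chr2:216672105-216695525, minus strand), which binds both IGFs and the extracellular matrix, lies 7668 bp from IGFBP2 in the opposite orientation, so that the genes are tail to tail. It had 1938 and 1788 counts in shNC and 2489 and 2397 in shMETTL14. The neighbours thus moved in the same direction. IGFBP5 rose from 95.3 ± 2.73 to 126 ± 1.82 CPM (SD, n = 2 each), a log2 fold change of 0.40 (SE 0.0456, edgeR adjusted p = 1.8e-07). Of its exon sequence, 4.63% is shared with an antisense gene that had 2 to 5 counts per library.

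IGFBP3 (ENSG00000146674, chr7:45912245-45921874, minus strand), the main carrier of IGFs in blood, was a low transcript with the largest proportional rise of the members. It had 88 and 89 counts in shNC and 187 and 204 in shMETTL14. IGFBP3 rose from 4.53 ± 0.165 to 10.1 ± 0.742 CPM (SD, n = 2 each), a log2 fold change of 1.15 (SE 0.148, edgeR adjusted p = 1.0e-06). Only 2.22% of all tested genes exceeded that value.

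IGFBP4 (ENSG00000141753, chr17:40443461-40457731, plus strand), an inhibitor of IGF action that the protease PAPPA cuts, had 578 and 573 counts in shNC and 291 and 287 in shMETTL14. The values within each group were nearly equal. IGFBP4 fell from 29.5 ± 0.654 to 14.9 ± 0.0355 CPM (SD, n = 2 each), a log2 fold change of -0.98 (SE 0.087, edgeR adjusted p = 4.0e-09), which left 50.5% of the control level.

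IGFBP6 (ENSG00000167779, chr12:53097436-53102345, plus strand), which prefers IGF2 over IGF1, had 67 and 78 counts in shNC and 49 and 59 in shMETTL14. The knockdown values were below the control values, with a gap smaller than the spread within either group. Its level was 3.72 ± 0.503 CPM against 2.78 ± 0.398 CPM (SD, n = 2 each), and the log2 fold change of -0.42 (SE 0.228, 95% interval -0.889 to 0.0578) did not pass the edgeR test (adjusted p = 0.13). Without shNC replicate 2 it was -0.267, without shMETTL14 replicate 1 it was -0.272, and without shMETTL14 replicate 2 it was -0.559, none of them called.

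Per kb of exon, the order of the members changed at several places. In shNC the mean level ran from IGFBP2 at 51.5 CPM per kb through IGFBP5 at 14.8, IGFBP4 at 13.4, IGF2R at 13.1 and IGF1R at 10.7 to H19 at 8.56. Below these lay IGFBP6 at 2.76, INSR at 2.60, IGFBP3 at 0.991 and IGF2 at 0.154 CPM per kb. The values of IGFBP4 and IGF2R overlapped between libraries, as did those of IGFBP6 and INSR, so their order was not resolved. In shMETTL14 the mean level of IGF1R, at 14.4 CPM per kb, had rank 3, behind IGFBP2 at 76.4 and IGFBP5 at 19.5. IGFBP4 went from rank 3 to rank 6 at 6.77 CPM per kb, and IGFBP3 from rank 9 to rank 7 at 2.20, where its values overlapped those of IGFBP6 at 2.07. These ranks depend on the length used: with the longest transcript, a choice made after seeing the data, IGF2R ranked 2, IGFBP5 3 and IGFBP4 4 in shNC, and IGF2R ranked 3 and IGF1R 4 in shMETTL14, while IGFBP4 again ranked 6 and IGFBP3 again went from 9 to 7.

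**Figure D3:**
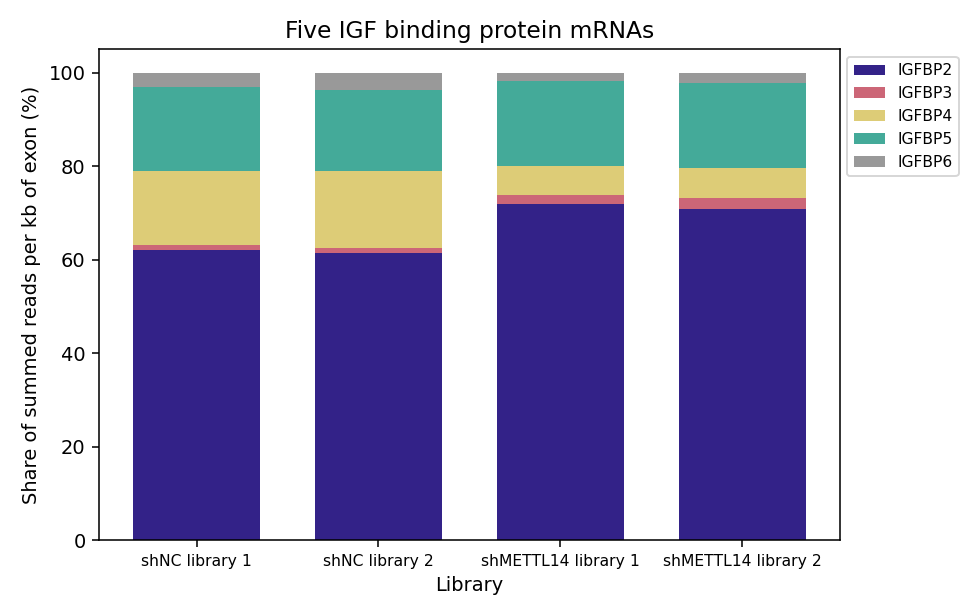
Composition of the 5 member IGF binding protein mRNAs in each library (x axis), each as a percentage of their summed reads per kb of exon (y axis, stacked to 100). IGFBP2 took 61.4% to 62.0% in the shNC libraries and 70.9% to 71.9% in the shMETTL14 libraries, and IGFBP4 took 15.8% to 16.3% and 6.24% to 6.42%.

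As a composition, the mRNAs of the 5 member binding proteins moved from IGFBP4 towards IGFBP2. The shares leave out listed binding proteins that are not members. Of these, IGFBPL1, named after its values were seen, had a mean level of 235 CPM in shNC and 217 CPM in shMETTL14. Its exons span only 1093 bp, so the shares do not describe all binding protein mRNA. The share of IGFBP2 among the reads per kb of the 5 binding proteins differed by 9.71 percentage points between the groups, and that of IGFBP4 by -9.73. The share of IGFBP3 was 1.16% and 1.22% in shNC and 1.93% and 2.20% in shMETTL14, and that of IGFBP6 was 2.99% and 3.64% in shNC and 1.72% and 2.16% in shMETTL14. IGFBP5, although called higher, kept nearly its share, at 18.1% and 17.4% in shNC and 18.2% and 18.3% in shMETTL14. These sizes depend on the length assumed for each gene: with the longest transcript in place of all exons, the share of IGFBP2 differed by 4.82 points, that of IGFBP4 by -4.2 and that of IGFBP5 by -0.443, the opposite sign.

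The remaining genes of the pathway were taken from lists by their role, and the genes named from each list are mainly those called with the largest change. Of 14 other extracellular IGF genes, 8 could be tested, of which 3 were called higher and 4 lower (87.5% called, against 52.5% of all tested genes; median log2 fold change -0.0638). The other ligands were at the floor of 3 counts or fewer in every library: IGF1 had 2 and 0 counts in shNC and 0 in both shMETTL14 libraries, INS had 1 count in a single shNC library, and INS-IGF2 had none. IGFBP1 and IGFALS, the partner of the circulating IGF complex, were at the floor too, with at most 1 and 2 counts in a library.

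Genes that act on the binding proteins were among those called. PAPPA2, a protease that cuts IGFBP3 and IGFBP5, had 21 and 43 counts in shNC and 7 and 3 in shMETTL14, a log2 fold change of -2.64 (SE 0.529, edgeR adjusted p = 2.3e-04). STC2, a secreted inhibitor of the PAPPA proteases, had 4279 and 4043 counts in shNC and 2386 and 2355 in shMETTL14, and fell by 0.80 on the log2 scale (SE 0.0418, edgeR adjusted p = 7.9e-13). STC1, the other stanniocalcin, which also inhibits PAPPA and is named after its values were seen, went the opposite way, with 553 and 582 counts in shNC and 988 and 976 in shMETTL14 (log2 fold change 0.80, SE 0.0706, edgeR adjusted p = 3.9e-09). Of 5 tested proteases and protease inhibitors on the list, 2 were called higher, 2 were called lower and 1 was not called. The 1 not called was PAPPA, the protease that cuts IGFBP4. It had 34 and 24 counts in shNC and 35 and 22 in shMETTL14 (log2 fold change -0.0149, edgeR adjusted p = 0.98). INSRR, the insulin receptor-related receptor, which binds no known IGF ligand, had 234 and 192 counts in shNC and 447 and 404 in shMETTL14, a log2 fold change of 1.01 (SE 0.105, edgeR adjusted p = 4.8e-08). IGFBP7, a related protein with low affinity for IGFs, had 40 and 51 counts in shNC and 22 and 25 in shMETTL14, with a log2 fold change of -0.94 (edgeR adjusted p = 0.015).

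Among 24 genes that act next to the receptor, 21 were tested, of which 7 were called higher and 5 lower (57.1% called, against 52.5%; median log2 fold change 0.0381). SOCS2, a suppressor of growth hormone and cytokine signaling that also binds IGF1R, had 752 and 810 counts in shNC and 184 and 165 in shMETTL14, so that the groups were far apart. It fell by 2.15 on the log2 scale (SE 0.0969, edgeR adjusted p = 7.3e-14). SOCS1, a relative of it, was low, with 6 and 7 counts in shNC and 17 in both shMETTL14 libraries (log2 fold change 1.38, SE 0.505, edgeR adjusted p = 0.026). IRS2, a docking protein of both kinase receptors, had 1839 and 1720 counts in shNC and 3134 and 3190 in shMETTL14, and rose by 0.84 on the log2 scale (SE 0.0449, edgeR adjusted p = 1.2e-12). SHC1, the adaptor that links the receptors to RAS, had 5782 and 5506 counts in shNC and 7976 and 7800 in shMETTL14 (log2 fold change 0.49, SE 0.0382, edgeR adjusted p = 4.9e-10).

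Of 30 genes of the PI3K and AKT branch, 26 were tested, and 12 were called higher and 8 lower (76.9% called, against 52.5%; median log2 fold change 0.127). Of the 26, 1 was called with a change of at least 2-fold, as were 8.79% of all tested genes. The median size of change was 0.349, against 0.3 over all tested genes. The 3 FOXO genes and BAD formed the effector group, of which 1 was called higher and 3 lower. FOXO1, a transcription factor that AKT keeps out of the nucleus, had 108 and 74 counts in shNC and 51 and 47 in shMETTL14, with a log2 fold change of -0.88 (edgeR adjusted p = 0.0023). Its relative FOXO4 had 202 and 200 counts in shNC and 122 and 113 in shMETTL14, with a log2 fold change of -0.76 (edgeR adjusted p = 6.1e-05). PHLPP2, a phosphatase that removes phosphate from AKT, had 194 and 174 counts in shNC and 321 and 310 in shMETTL14 (log2 fold change 0.79, edgeR adjusted p = 3.1e-06). The catalytic subunit gene PIK3CD was at low counts, 12 and 18 in shNC and 5 and 6 in shMETTL14 (log2 fold change -1.42, SE 0.549, edgeR adjusted p = 0.035).

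**Figure D4:**
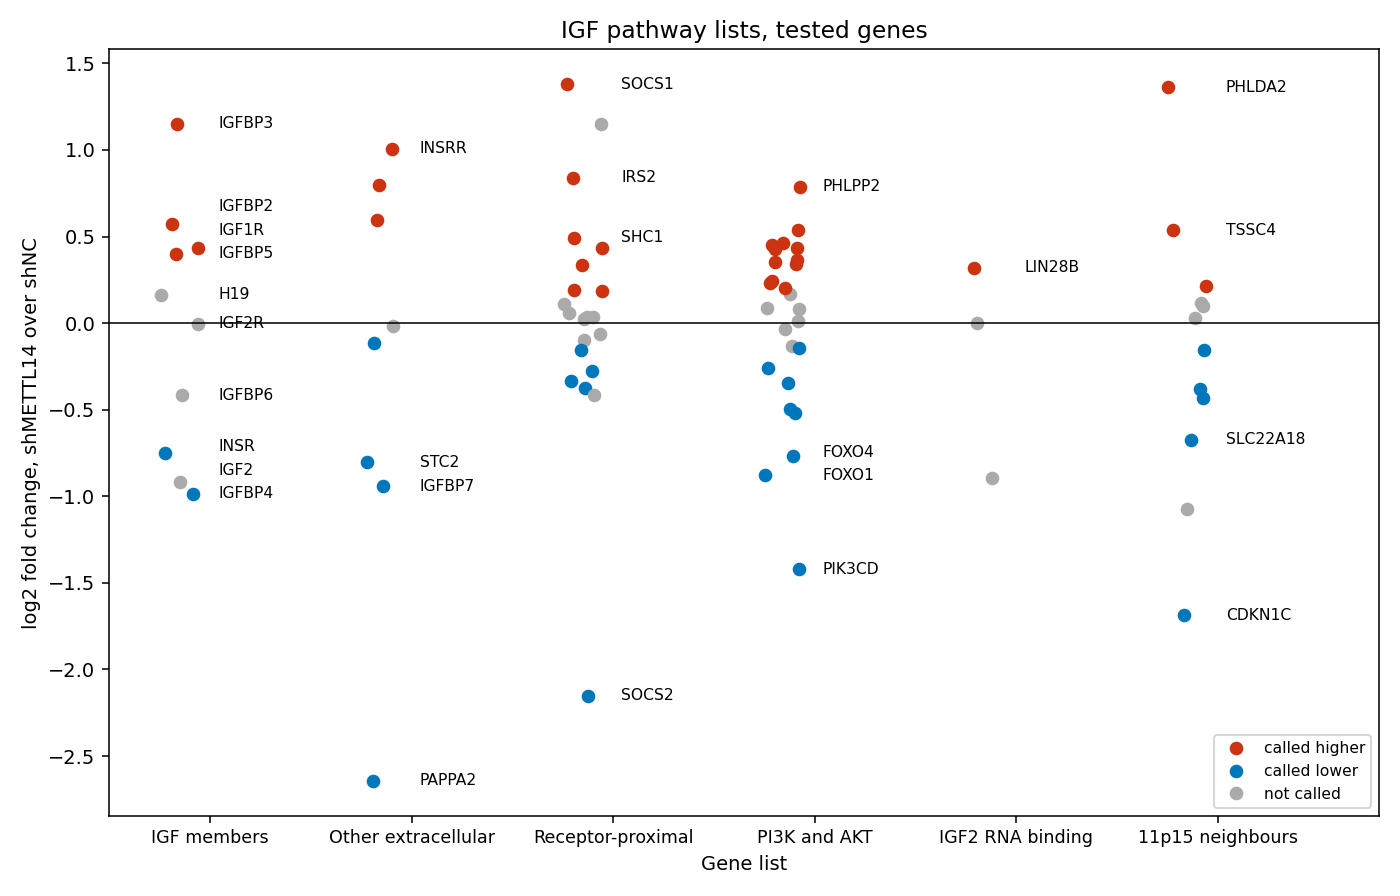
Log2 fold change, shMETTL14 over shNC (y axis), of every tested gene in the IGF members and in 5 lists of related genes (x axis), with red points called higher, blue points called lower and grey points not called. Points in each list lay on both sides of 0; PAPPA2 at -2.64 and SOCS2 at -2.15 were the lowest, and SOCS1 at 1.38 and PHLDA2 at 1.36 the highest.

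Of 6 genes whose products bind or regulate IGF2 mRNA, 3 were tested and 1 was called (33.3%, against 52.5%). LIN28B, an RNA-binding protein and let-7 inhibitor, had 1222 and 1234 counts in shNC and 1588 and 1459 in shMETTL14 (log2 fold change 0.32, SE 0.0541, edgeR adjusted p = 3.5e-05). Among 17 neighbours of IGF2 on chromosome 11p15, 12 were tested, of which 3 were called higher and 5 lower (66.7% called, against 52.5%; median log2 fold change -0.0604). CDKN1C, an imprinted inhibitor of cyclin-dependent kinases, had 238 and 226 counts in shNC and 74 and 69 in shMETTL14, and fell by 1.69 on the log2 scale (SE 0.146, edgeR adjusted p = 2.9e-09). PHLDA2, an imprinted gene that restrains placental growth, had 125 and 147 counts in shNC and 313 and 382 in shMETTL14, and rose by 1.36 on the log2 scale (SE 0.132, edgeR adjusted p = 1.7e-08). The imprinted neighbours thus moved in both directions. SLC22A18 had a log2 fold change of -0.67 (edgeR adjusted p = 0.013) and TSSC4 one of 0.54 (edgeR adjusted p = 9.8e-06). Over the 5 lists, members apart, 48 of 70 tested genes were called (68.6%, against 52.5% of all genes), 26 higher and 22 lower (27.2% and 25.3% of all genes), with a median log2 fold change of 0.0363. A change of at least 2-fold was called for 7 of them and for 8.79% of all genes.

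Because METTL14 acts on m6A sites, the letters GGACT, a common form of the m6A site on the gene's strand, were counted in the longest annotated transcript of each member. That transcript was taken among protein-coding transcripts where the gene had any. The density ran from 0.415 per kb in IGFBP3 to 1.82 per kb in IGFBP4, with a median of 0.913 per kb over 16162 tested genes. Among the called members, IGFBP4, which fell, and IGFBP5, which rose and had 1.45 per kb, lay above that median. IGF1R at 0.736, INSR at 0.782, IGFBP2 at 0.695 and IGFBP3 lay below it. The letters say nothing of whether a site was methylated, and no methylation was measured in these libraries.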

How the data were processed

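Libraries of 2 shNC and 2 shMETTL14 samples of SK-N-BE(2) underwent paired-end sequencing (Illumina NovaSeq). Raw counts per Ensembl gene, not normalized, were deposited by the authors in 1 table. The submitters' processing notes name HISAT2 2.1.0, StringTie 1.3.6, HTSeq 0.13.5 and edgeR with GRCh38 (hg38); the annotation release and strand setting were not given in the sources used here, so reads of overlapping genes may be lost as ambiguous. The 5 lines naming no gene, 19.1% to 19.9% of counts, were left out.

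Counts were tested with edgeR 4.0.16 in R 4.3.3 (glmQLFit and glmQLFTest, TMM, group only). Genes passing filterByExpr (minimum count 10, total 15) were kept, and calls were made at an adjusted p under 0.05. Counts were divided by library size for CPM, and by GENCODE 29 exon length on GRCh38 for levels per kb. The procedure was tested on simulated data in which far fewer genes changed than were called here. That test therefore does not cover changes as broad as these. Alternatives were DESeq2 1.42.0, other scalings and filters, a replicate block, other lengths and leaving out each library. The longest transcript was taken among protein-coding transcripts where a gene had any. Members and lists were chosen with earlier results of these data known. Named genes were all members, METTL14, up to 4 called genes per list with the largest change, and ligands, receptors or binding proteins at 3 counts or fewer in every library of a group. STC1, PAPPA and IGFBPL1 were named besides, after their values were seen. Promoter and miRNA sequences are from RefSeq.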

Additional observations from a re-analysis of the deposited data

How the results depend on the processing

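Over 11 alternatives, the 6 members called (IGF1R, INSR, IGFBP2, IGFBP3, IGFBP4 and IGFBP5) kept their direction and their call in each, METTL14 ran from -1.33 to -1.25 on the log2 scale (-1.31 to -1.21 with 1 library left out), and 6 to 7 members were called (6 with any 1 library left out). The additional one was IGF2, called when every library had to have at least 10 counts (log2 fold change -0.935, edgeR adjusted p = 0.0368). In that setting 14769 genes were tested, against 16309 in the main test, and the SE of IGF2 was 0.372, against 0.435. Why the call changed was not tested. The sign of IGF2R reversed without a filter (0.00593), with DESeq2 (0.00211), and between -0.0396 and 0.0322 with 1 library left out; it was called under none. With the longest transcript as length, the share of IGFBP2 differed by 4.82 points, IGFBP3 by 0.539, IGFBP4 by -4.2, IGFBP5 by -0.443 (reversed) and IGFBP6 by -0.72. An exon length shared with no other gene, chosen after seeing the data, reversed no share. For a ratio of single genes, length cancels in the log2 difference between groups, so no length could change it. Pathway calls ran from 37 of 90 listed genes with DESeq2 to 49 of 70 tested with upper quartile scaling. Over all genes, these settings called 5556 of 16391 and 8511 of 16309. Upper quartile scaling moved the share of higher among all calls from 51.8% to 41.7%. Calls over all genes numbered 5556 with DESeq2 against 8561 with edgeR; the cause was not tested. Replicate numbers were shared across groups, but same-numbered libraries did not deviate together (Pearson -0.0018, Spearman 0.0221 across genes). With the replicate block, 6 of 10 members and 49 of 70 pathway genes were called, beside 8926 of all 16309 genes tested. Low counts limit the precision for IGF2 and IGFBP6 among the members, and for SOCS1, PAPPA2, IGFBP7 and PIK3CD among the other genes named.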
